A study of Schizosaccharomyces pombe with 12 samples.

Results

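Ribosome biogenesis and rRNA processing factors of fission yeast (Schizosaccharomyces pombe) were followed on oligonucleotide arrays, in cells arrested in G1 and carrying a thermosensitive or a wild-type allele of the cohesin loader gene mis4. The members are 31 genes, chosen by name, each read by the probe set that carries its symbol on the platform, out of 2896 S. pombe genes read in all. The 4 groups, of 3 arrays each, were mis4-367 cells at 37 °C, mis4-367 cells at 25 °C, mis4+ cells at 37 °C and mis4+ cells at 25 °C. Every strain was h- and carried ura4+-pREP2-res1, from which a C-terminal piece of Res1 is made once thiamine is withdrawn. That piece titrates the transcription factor Cdc10, so all 4 groups, controls included, were held in G1 by the same overproduced protein. Proliferation stopped after 7 doublings at 25 °C without thiamine, and the 37 °C groups then spent 2 h at that temperature. No 25 °C group is labelled as held for 2 h more, so the temperature and the added time in arrest cannot be told apart. The shift and the temperature response below refer to both together. The 3 arrays of a group came from independent cultures.

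Ribosomes are built in the nucleolus, where RNA polymerase I transcribes one long precursor that is cut, trimmed and chemically modified into the mature rRNAs of both subunits. Small nucleolar ribonucleoproteins (snoRNPs) guide the modifications: those of the box H/ACA class make pseudouridine and those of the box C/D class add methyl groups to the ribose. Large assemblies of GTPases, RNA helicases and RNA-binding proteins fold and cleave the precursors of the small and the large subunit, and the RNA exosome trims the ends. In yeasts the mRNAs of these factors are known to be regulated with growth rate and to respond to stress.

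All 31 members lay above the background level, an intensity of 10.7, on each of the 12 arrays, between 155 and 4070. Values are intensities on a linear scale as deposited, and changes are log2 differences of group means from limma. Genes with a Benjamini-Hochberg adjusted p under 0.05 over all 2896 genes are said to have risen or fallen, or between strains to be higher or lower. One symbol did not match its gene: the probe set named rrp12 is tied by its gene identifier to SPBC1105.01, while the reference table gives the name rrp12 to SPAPB8E5.07C. Its values are given as rrp12 of the platform, and the counts of members called were the same without it. Arrays measure RNA of whole cultures, so fewer cells with a transcript and less of it per cell cannot be told apart.

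The median intensity of an array, taken over the genes of S. pombe, was 394 to 433. Replicate 3 of mis4+ at 37 °C stood apart: its log2 distance to its group's other 2 arrays had an SD of 0.20 across genes, against 0.065 to 0.134 for the other arrays. On it the members lay above the other 2 arrays of the group by a median of 0.12, and all genes by 0.10. The heat shock gene hsp16 rose at 37 °C by 1.10 in mis4-367 and by 0.83 in mis4+ (adjusted p = 7.47e-09 and 9.38e-08), so this transcript followed the temperature label, and of 7 heat check genes 4 rose and 2 fell in each strain.

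Most of the members differed between 37 °C and 25 °C, some higher and some lower. In mis4-367 cells 15 of the 31 rose, 7 fell and 9 did not pass, so that 71.0% were called, against 56.4% of all genes tested. In mis4+ cells 15 rose, 8 fell and 8 did not pass, or 74.2% against 55.3% of all genes. Risers made up 33.4% of all genes in each strain, and fallers 23.0% in mis4-367 and 21.9% in mis4+. After quantile normalization over the S. pombe genes the split of all genes was closer to even, at 828 risers and 837 fallers in mis4-367 and 847 and 834 in mis4+, while the members stood at 15 and 7 in mis4-367 and 13 and 10 in mis4+. The 37 °C arrays lay wholly above the 25 °C arrays for 16 members in mis4-367 and 15 in mis4+ (39.6% and 36.4% of all genes) and wholly below for 8 in mis4-367 and 9 in mis4+ (31.2% and 24.0%). The protein genes of the snoRNPs and the nucleolin-like gene gar2 were on the falling side. Of the factors of the subunit precursors, 5 of 9 for the small and 9 of 13 for the large subunit rose in each strain. The changes were modest. The median size was 0.31 for the members in mis4-367 against 0.20 for all genes, and 0.24 in mis4+ against 0.19. Only dbp8 and esf2 in mis4-367 and dbp8 in mis4+ reached 1.5-fold.

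**Figure D1:**
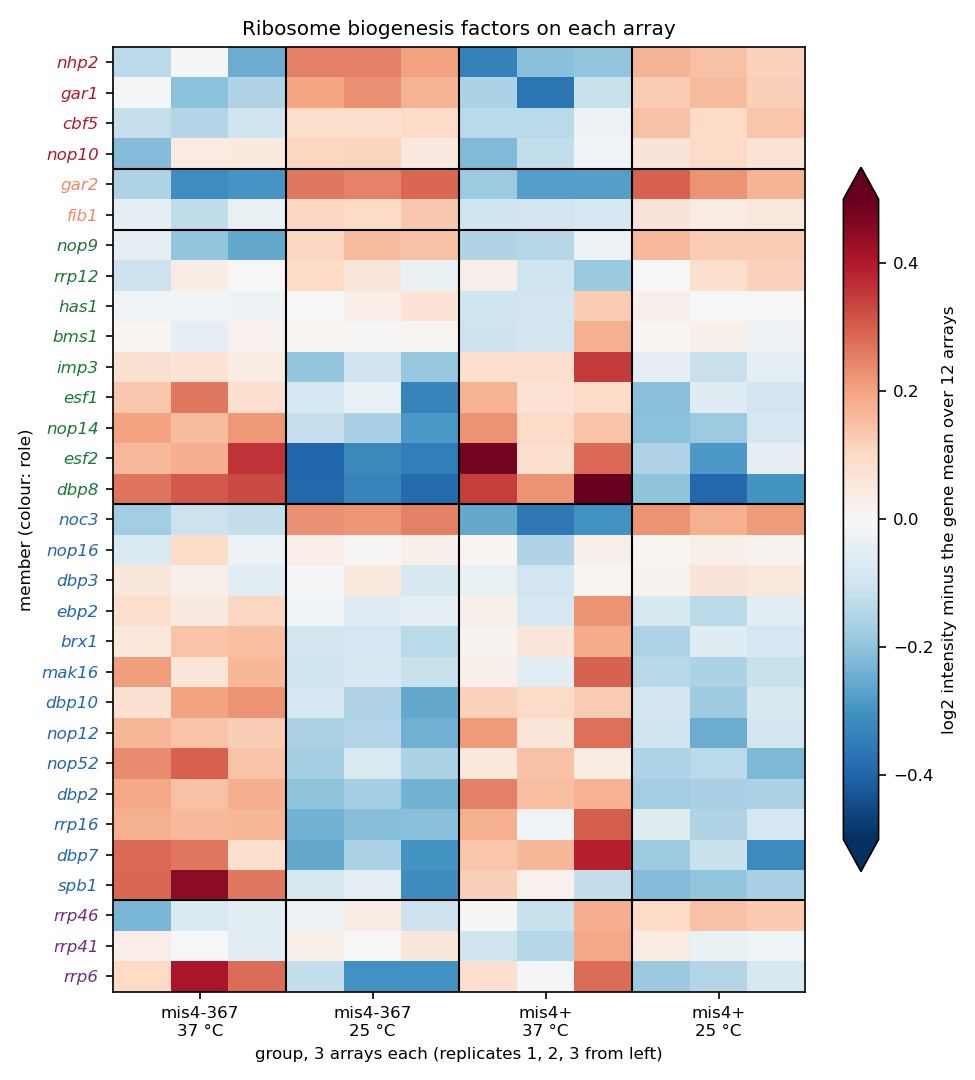
Log2 intensity of each of the 31 members (rows, grouped and coloured by role, from the top H/ACA snoRNP, C/D snoRNP with gar2, small-subunit processome, large-subunit precursors and RNA exosome) on each of the 12 arrays (columns), minus the mean of that member over all arrays. The colour scale stops at 0.5 either way. Blue at 37 °C marks the snoRNP genes, nop9 and noc3, red marks most of the other members, and the third column of mis4+ at 37 °C is redder than its neighbours for many rows.

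All 4 H/ACA snoRNP proteins were lower at 37 °C, with 3 of 4 past the test in mis4-367 and 4 of 4 in mis4+. Their median change was -0.27 in mis4-367 and -0.29 in mis4+, where the medians of all genes were 0.036 and 0.043. Cbf5 is the pseudouridine synthase of the particle, and Nhp2, Nop10 and Gar1 are its partners. The gene nhp2 read 1675, 1830 and 1547 in mis4-367 at 37 °C, against 2188, 2189 and 2114 at 25 °C. In mis4+ it read 1454, 1589 and 1602 at 37 °C, against 2069, 2037 and 1991 at 25 °C. Every 37 °C array was below every 25 °C array, and the change was -0.36 ± 0.06 (SE) in mis4-367 and -0.39 ± 0.06 in mis4+ (adjusted p = 0.000279 and 0.000169).

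The same order held for gar1. It read 2700, 2353 and 2449 in mis4-367 at 37 °C, against 3111, 3180 and 3054 at 25 °C. In mis4+ it read 2437, 2107 and 2512 at 37 °C, against 2969, 3032 and 2951 at 25 °C. The groups did not overlap in either strain, and gar1 fell by 0.32 in mis4-367 and by 0.35 in mis4+ (adjusted p = 0.00151 and 0.000905).

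The fall of cbf5 was smaller and was measured closely. It read 3392, 3323 and 3438 in mis4-367 at 37 °C, against 3911, 3909 and 3930 at 25 °C. In mis4+ it read 3353, 3355 and 3612 at 37 °C, against 4070, 3938 and 4054 at 25 °C. Again no 37 °C array reached the 25 °C range, with changes of -0.21 ± 0.04 in mis4-367 and -0.23 ± 0.04 in mis4+ (adjusted p = 0.00107 and 0.000711).

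The smallest protein of the particle, Nop10, had the least certain transcript. It read 1796, 2148 and 2158 in mis4-367 at 37 °C, against 2247, 2257 and 2158 at 25 °C, and these groups met. In mis4+ nop10 read 1790, 1916 and 2059 at 37 °C, against 2183, 2233 and 2191 at 25 °C, without overlap. The change was -0.13 in mis4-367 (adjusted p = 0.133) and -0.20 in mis4+ (adjusted p = 0.0314). The mis4+ call for nop10 was lost when either of replicates 1 and 2 at 37 °C, or a single 25 °C array of that strain, was left out (adjusted p of 0.0616 to 0.118).

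Of the other snoRNP genes, fib1 encodes fibrillarin, the methyltransferase of the box C/D particles. It fell by 0.18 in mis4-367 and by 0.15 in mis4+ (adjusted p = 0.00196 and 0.00793), without overlap between temperatures. The gene gar2 encodes a nucleolar protein related to nucleolin and needed for small-subunit rRNA. It read 2121, 1903 and 1924 in mis4-367 at 37 °C, against 2834, 2805 and 2880 at 25 °C. In mis4+ it read 2078, 1950 and 1952 at 37 °C, against 2894, 2755 and 2656 at 25 °C. This was the largest fall of a member in mis4-367, at -0.52 ± 0.05 or 1.43-fold (adjusted p = 5.25e-06), and in mis4+ it was -0.47 ± 0.05 or 1.39-fold (adjusted p = 1.25e-05).

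Small-subunit processome factors were mixed: 5 of 9 rose in each strain, 1 fell and 3 did not pass, where 33.4% of all genes rose. By sign alone 5 lay above 0 and 4 below in each strain, with a median of 0.22 in mis4-367 and 0.24 in mis4+. The largest rise of any member was that of dbp8, a DEAD-box RNA helicase of the 18S pathway. It read 381, 391 and 398 in mis4-367 at 37 °C, against 241, 251 and 242 at 25 °C. In mis4+ it read 402, 370 and 455 at 37 °C, against 275, 241 and 257 at 25 °C. The ranges were far apart in both strains, at 0.67 ± 0.07 or 1.59-fold in mis4-367 (adjusted p = 6.38e-06) and 0.66 ± 0.07 or 1.58-fold in mis4+ (adjusted p = 8.44e-06).

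Second among the risers of both strains came esf2, which encodes an RNA-binding protein of early 18S processing. It read 287, 291 and 329 in mis4-367 at 37 °C, against 195, 205 and 202 at 25 °C. In mis4+ it read 357, 271 and 312 at 37 °C, against 231, 210 and 249 at 25 °C. The groups were apart in both strains although the mis4+ arrays at 37 °C spread more than those of any other member (SD 0.20 on the log2 scale, n = 3). The change was 0.59 ± 0.09 in mis4-367 and 0.44 ± 0.09 in mis4+ (adjusted p = 0.000196 and 0.00169).

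The 3 other risers of this group were nop14, esf1 and imp3. Nop14 and Imp3 are components of the processome itself, and Esf1 acts in 18S processing. The change of nop14 was 0.38 in mis4-367 and 0.31 in mis4+ (adjusted p = 0.00011 and 0.000496). That of imp3 was 0.22 and 0.24 (adjusted p = 0.0122 and 0.00855). For esf1 it was 0.31 in mis4-367 and 0.24 in mis4+ (adjusted p = 0.00418 and 0.021), and in mis4+ the call was lost after quantile normalization over the S. pombe genes (0.14, adjusted p = 0.194) or without replicate 1 of either mis4+ group (adjusted p = 0.0691 and 0.0848).

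Against these, nop9, a Pumilio-like RNA-binding protein gene, fell. It read 1086, 978 and 939 in mis4-367 at 37 °C, against 1205, 1252 and 1242 at 25 °C. In mis4+ it read 1010, 1017 and 1103 at 37 °C, against 1255, 1227 and 1227 at 25 °C. No 37 °C value reached the 25 °C range, with changes of -0.30 ± 0.06 in mis4-367 and -0.25 ± 0.06 in mis4+ (adjusted p = 0.000614 and 0.00275). The 3 other processome genes did not pass in either strain: bms1 (GTPase; -0.01 in both), has1 (helicase; -0.05 in mis4-367 and -0.03 in mis4+) and rrp12 of the platform (-0.07 and -0.15, adjusted p = 0.394 and 0.0572). In mis4+ rrp12 passed as lower after re-centring (0.0417) or quantile normalization (0.036), with a trended prior (0.0463) and without replicate 1 at 37 °C (-0.21, adjusted p = 0.0149). Without replicate 3 of mis4+ at 37 °C, bms1 (-0.10, adjusted p = 0.0258) and has1 (-0.11, adjusted p = 0.0174) fell in mis4+, as they did with array weights (adjusted p = 0.0418 and 0.0309).

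**Figure D2:**
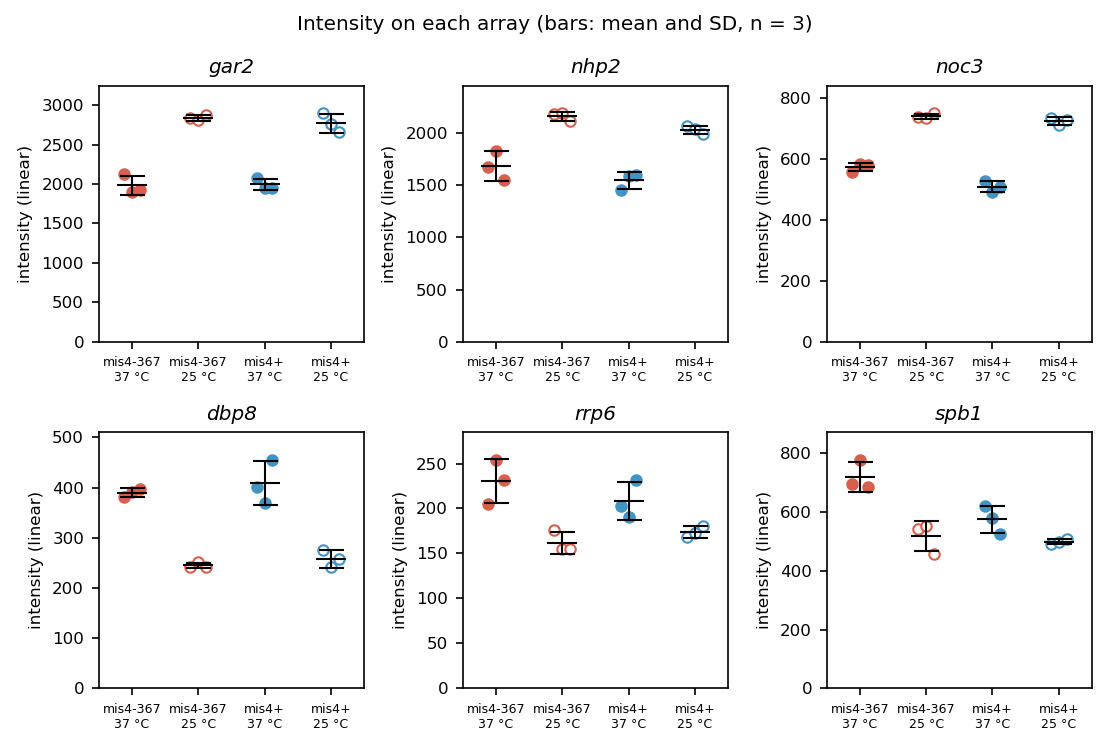
Deposited intensity (linear axis from 0) of gar2, nhp2, noc3, dbp8, rrp6 and spb1 on every array, with points for the arrays (filled at 37 °C, open at 25 °C, red for mis4-367, blue for mis4+) and bars for mean and SD (n = 3). In each panel the 37 °C arrays of a strain lie wholly below (upper row) or wholly above (lower row) its 25 °C arrays, and in noc3 and spb1 the mis4-367 arrays at 37 °C also lie above those of mis4+.

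Large-subunit precursor members mostly rose: 9 of 13 rose in each strain, noc3 fell and 3 did not pass, where 33.4% of all genes rose. Their median was 0.33 in mis4-367 and 0.22 in mis4+. Large-subunit factors outside the members did not share this: 7 of 19 rose in each strain, with medians of 0.091 in mis4-367 and -0.019 in mis4+. The methyltransferase gene spb1, whose yeast counterpart modifies the 25S rRNA, read 697, 778 and 686 in mis4-367 at 37 °C, against 541, 553 and 459 at 25 °C. In mis4+ it read 620, 580 and 526 at 37 °C, against 492, 498 and 510 at 25 °C. The rise was 0.48 ± 0.08 in mis4-367 (adjusted p = 0.00027) and 0.20 ± 0.08 in mis4+, where it lay just inside the threshold (adjusted p = 0.0497). In mis4+ the call was lost after re-centring (adjusted p = 0.103), after quantile normalization (0.0695), and without replicate 1 or 2 at 37 °C or any 1 array at 25 °C (0.0789 to 0.172).

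Helicases supplied further risers. The gene dbp7 read 244, 241 and 212 in mis4-367 at 37 °C, against 168, 180 and 163 at 25 °C. In mis4+ it read 221, 225 and 263 at 37 °C, against 177, 186 and 161 at 25 °C. The groups were apart, with changes of 0.45 ± 0.08 and 0.43 ± 0.08 (adjusted p = 0.000504 in mis4-367 and 0.000688 in mis4+).

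The p68-like helicase gene dbp2, which also acts on mRNPs in budding yeast, had narrow groups. It read 2133, 2069 and 2115 in mis4-367 at 37 °C, against 1625, 1660 and 1583 at 25 °C. In mis4+ it read 2226, 2072 and 2108 at 37 °C, against 1657, 1670 and 1671 at 25 °C. The rise was 0.38 ± 0.04 in mis4-367 and 0.36 ± 0.04 in mis4+ (adjusted p = 1.01e-05 and 1.8e-05). Of the 6 DEAD-box helicase members, dbp2, dbp7, dbp8 and dbp10 rose in both strains, while dbp3 (0.02 in mis4-367, -0.09 in mis4+) and has1 did not pass.

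The RNA-binding protein gene nop12 read 749, 735 and 727 in mis4-367 at 37 °C, against 598, 602 and 565 at 25 °C. In mis4+ it read 773, 696 and 806 at 37 °C, against 623, 561 and 625 at 25 °C. Its change was 0.33 ± 0.06 in both strains (adjusted p = 0.000638 in mis4-367 and 0.000664 in mis4+), with no overlap. The remaining risers were rrp16, also known as nop53 (0.39 in mis4-367 and 0.25 in mis4+), nop52 (0.36 and 0.25), dbp10 (0.33 and 0.23), mak16 (0.24 and 0.22) and brx1 (0.22 and 0.19), all known for large-subunit assembly in yeasts. Their adjusted p lay between 0.00011 and 0.0159 in mis4-367 and between 0.00166 and 0.025 in mis4+. The call of mak16 was lost without replicate 1 of mis4-367 at 37 °C (adjusted p = 0.058), and in mis4+ without replicate 1 or 2 at 25 °C (0.0604 and 0.0701) or with only the mis4+ groups in the fit (0.0775).

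The exception was noc3, whose product escorts large-subunit precursors through the nucleus and in budding yeast also serves DNA replication. It read 557, 583 and 579 in mis4-367 at 37 °C, against 737, 733 and 749 at 25 °C. In mis4+ it read 527, 491 and 509 at 37 °C, against 734, 710 and 728 at 25 °C. It fell by 0.37 in mis4-367 (SE 0.04, adjusted p = 1.21e-05) and by 0.51 in mis4+ (SE 0.04, adjusted p = 9.36e-07), the largest fall of a member in mis4+. The genes nop16 (-0.03 in mis4-367 and -0.05 in mis4+) and ebp2 (0.12 and 0.14, adjusted p = 0.133 and 0.0786) did not pass. The gene ebp2 passed as higher in mis4-367 with array weights (0.0163) or only the groups compared (0.0191), and in mis4+ after quantile normalization (0.0292) or without replicate 2 at 37 °C (0.22, adjusted p = 0.00923).

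**Figure D3:**
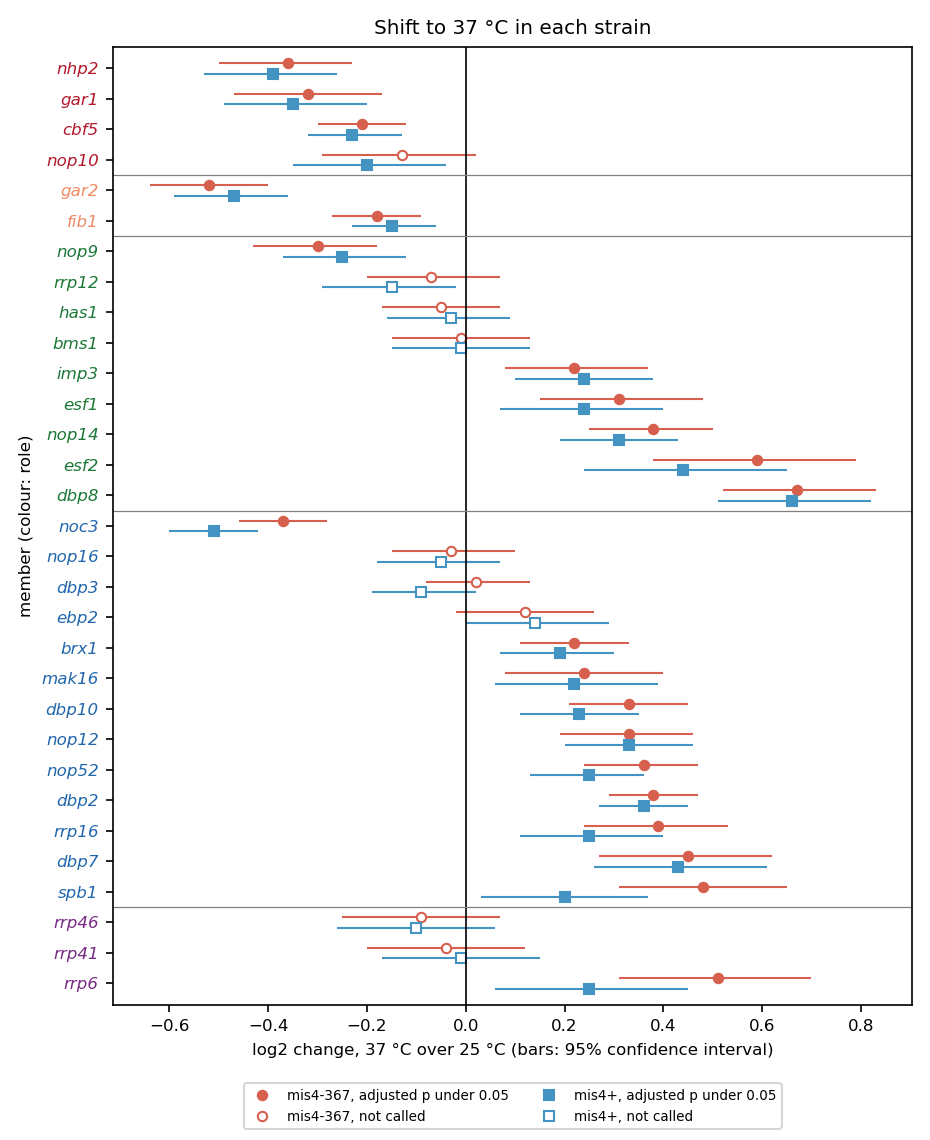
Log2 change at 37 °C over 25 °C for each of the 31 members in mis4-367 (red circles, upper of each pair) and mis4+ (blue squares), with 95% confidence intervals from limma; filled symbols passed adjusted p under 0.05. The H/ACA, fib1, gar2, nop9 and noc3 symbols lie left of 0, and dbp8 lies farthest right at 0.67 and 0.66.

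Among the exosome members, rrp6, the nuclear exonuclease that also removes meiotic mRNAs in growing fission yeast, rose. It read 205, 254 and 232 in mis4-367 at 37 °C, against 176, 155 and 155 at 25 °C. In mis4+ it read 203, 190 and 232 at 37 °C, against 168, 173 and 181 at 25 °C. The rise was 0.51 ± 0.09 in mis4-367 (adjusted p = 0.000374) and 0.25 ± 0.09 in mis4+ (adjusted p = 0.0271). In mis4+ the call was lost after quantile normalization (0.16, adjusted p = 0.0857) and without replicate 3 at 37 °C (0.18, adjusted p = 0.0973) or replicate 1 or 2 at 25 °C (adjusted p = 0.085 and 0.0654). The ring subunits rrp41 (-0.04 in mis4-367 and -0.01 in mis4+) and rrp46 (-0.09 and -0.10) did not pass. Without replicate 3 of mis4+ at 37 °C both fell in mis4+, rrp41 at -0.12 (adjusted p = 0.0293) and rrp46 at -0.18 (adjusted p = 0.0248). The call of rrp46 was also made after quantile normalization (0.0429) and with array weights (0.0276). That array also decided the middle of the mis4+ response. Without it 14 members rose and 12 fell, and the median of the members was 0.061 in place of 0.145. All genes moved the same way, to 950 risers and 784 fallers (59.9% called) and a median of 0.014 in place of 0.043.

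The log2 changes of the strains come from separate arrays and can be set beside each other, although all 12 arrays were normalized together. The calls are less separate, since the fit used the same estimate of each gene's spread for both strains. All 22 members called in mis4-367 were called in the same direction in mis4+, which is 100% of the calls in mis4-367 and 95.7% of those in mis4+. Over all genes these shares were 82.7% and 84.3%. The correlation of the 2 log2 changes across members was 0.969 (Pearson, 31 genes, which share arrays and are not independent replicates), and across all genes 0.959.

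**Figure D4:**
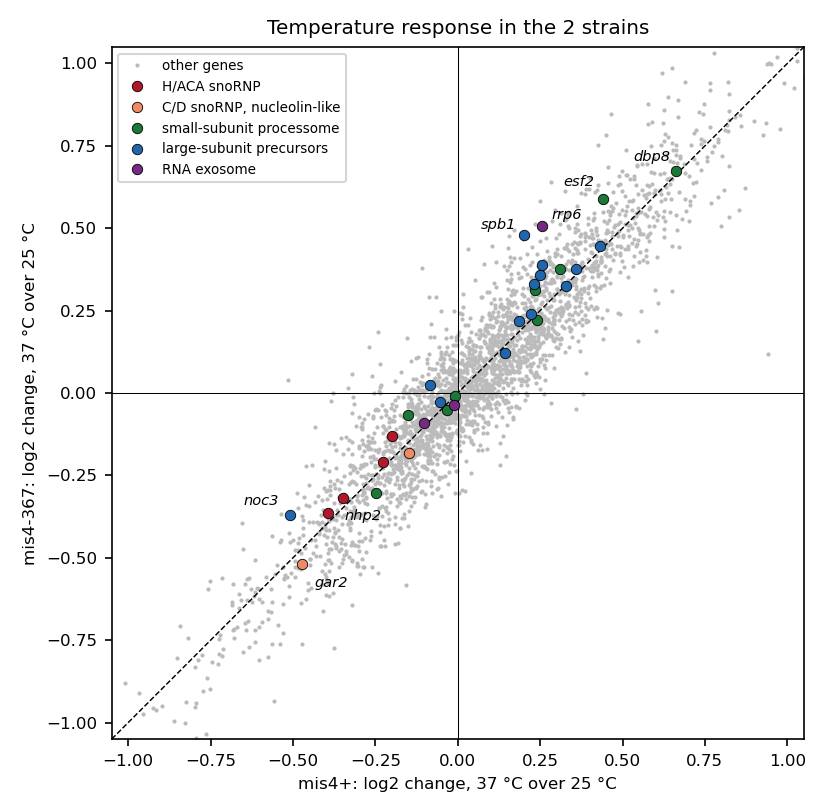
Log2 change at 37 °C over 25 °C in mis4-367 (vertical) against that in mis4+ (horizontal), with members coloured by role and all other genes in grey; the dashed line marks equal change, and 92 other genes lie outside the axes. The members follow the line, with spb1 and rrp6 above it.

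Other genes of the pathway, taken from lists of known factors, also split. Of 16 further small-subunit factors, 6 rose and 2 fell in mis4-367 and 6 rose and 3 fell in mis4+. The risers with the largest change in mis4+ were mis3, the Krr1 counterpart (0.66 in mis4-367 and 0.49 in mis4+), tsr3 (0.31 and 0.36) and pno1 (0.23 and 0.31). Falls in mis4+ were found for utp23 (-0.08 in mis4-367, not past the test, and -0.28 in mis4+), mra1, the Emg1 methyltransferase gene (-0.26 in both), and snu13, another core protein of the C/D particles (-0.20 and -0.26).

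Of 19 further large-subunit factors, 7 rose and 2 fell in mis4-367, and 7 rose and 5 fell in mis4+. The shares called were 47.4% and 63.2%, against 56.4% and 55.3% of all genes. The list includes tif51, whose known role is in translation. Among them rlp7 (0.55 in mis4-367 and 0.46 in mis4+), nog1 (0.38 and 0.41) and puf6 (0.34 and 0.27) rose. The pescadillo gene ppp1 did not pass in mis4-367 (adjusted p = 0.998) and fell by 0.25 in mis4+ (adjusted p = 0.0355), mrt4 was at -0.15 in mis4-367 and fell by 0.20 in mis4+, and the helicase gene drs1 fell by 0.20 in mis4-367 and by 0.16 in mis4+.

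RNA nucleases and exosome partners outside the members had 4 risers and 5 fallers among 13 in each strain. The share called was 69.2%, against 56.4% of all genes in mis4-367 and 55.3% in mis4+. The RNase III gene pac1 (-0.81 in mis4-367 and -0.79 in mis4+), the helicase gene mtr4, which feeds the exosome (-0.63 and -0.62), and the exonuclease gene rex2 (-0.63 and -0.56) fell. The genes din1, a partner of the exonuclease Dhp1 (0.67 and 0.66), rex3 (0.23 and 0.21) and rna1, known as the Ran GTPase activator (0.20 and 0.17), rose.

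Of 22 genes of RNA polymerase I and its factors, 5 rose and 3 fell in mis4-367 and 4 rose and 4 fell in mis4+. The share called was 36.4% in each strain, below that of all genes. The largest change was that of spp27, a subunit of the upstream activating factor, at -1.13 in mis4-367 and -0.92 in mis4+ (adjusted p = 5.8e-07 and 3.73e-06). The polymerase genes rpa43 (-0.34 and -0.46) and rpa34 (0.38 and 0.39) moved apart. The subunit gene rpc40 was at -0.10 in mis4-367 and fell by 0.23 in mis4+, while the initiation factor genes rrn6 (0.42 and 0.36) and rrn11 (0.44 and 0.32) rose. Of 5 genes listed for RNase P and MRP, 2 rose in mis4-367 and 1 in mis4+ (40.0% and 20.0% called, against 56.4% and 55.3% of all genes). The riser of both was pop2 (0.31 in each), which in fission yeast is known as a ubiquitin ligase subunit. The ribosomal protein chaperone list had 1 measured gene, zpr1 (0.15 and 0.11, adjusted p = 0.0128 and 0.0588).

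Between the strains at 37 °C, the restrictive temperature of mis4-367, most members differed by less than the spread between arrays. Of 31, 2 were higher in mis4-367 than in mis4+, spb1 and noc3, none was lower and 29 did not pass. So 6.45% were called, against 7.18% of all genes (1.73% higher and 5.46% lower). Of all genes 50 were higher and 158 lower, or 88 and 88 after quantile normalization and 80 and 108 after re-centring. The share of members called was near that of all genes. At an unadjusted limma p under 0.05 there were 3 of the 31 members, all higher, against 850 of the 2896 genes, which is a smaller share of the members than of all genes. The median of the members was 0.025, and that of all genes was -0.046. The mis4-367 arrays lay wholly above those of mis4+ for 2 members and wholly below for 1, imp3, against 7.25% and 17.3% of all genes.

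Both called members belong to the large-subunit precursor group. The level of spb1 at 37 °C was 697, 778 and 686 in mis4-367, against 620, 580 and 526 in mis4+, a change of 0.33 ± 0.08 or 1.25-fold (adjusted p = 0.0373). That of noc3 was 557, 583 and 579 in mis4-367, against 527, 491 and 509 in mis4+, a change of 0.17 ± 0.04 or 1.13-fold (adjusted p = 0.0365). In both genes the strains were apart. In the shift noc3 fell in both strains (-0.37 in mis4-367 and -0.51 in mis4+), so its higher level in mis4-367 was not a rise with temperature. Next by unadjusted p was nop52 with 888, 927 and 833 in mis4-367, against 782, 835 and 775 in mis4+, which overlapped by 1 array (0.15 ± 0.05, adjusted p = 0.097).

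These calls leaned on single arrays and on the shared spread. With only the 37 °C arrays in the fit neither passed (adjusted p = 0.162 for spb1 and 0.238 for noc3). The call of noc3 was lost without replicate 2 (0.128) or 3 (0.0765) of mis4-367, and that of spb1 when replicate 1 (0.0557), 2 (0.139) or 3 (0.0569) of mis4-367 was left out, or when replicate 3 of mis4+ was (0.0875). Fits that weight arrays by their quality called 6 members higher, adding nhp2, nop10, nop52 and rrp6, and called 16.4% of all genes.

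Outside the members, dim1 (0.32 ± 0.08, adjusted p = 0.0391), ppp1 (0.38 ± 0.09, adjusted p = 0.0365) and the polymerase I subunit gene ker1 (0.33 ± 0.06, adjusted p = 0.0112) rose in mis4-367 at 37 °C. The gene dim1 was listed with the small-subunit factors by its symbol alone, and its role in fission yeast was not checked. No gene of the other pathway lists was lower in mis4-367 at 37 °C. Of 13 mitosis genes, taken as markers of cells outside G1, 5 were lower in mis4-367 than in mis4+ at 37 °C. The summed intensity of the 13 there was 3988 to 4171 in mis4-367 against 4496 to 4922 in mis4+. At 25 °C these sums were 4465 to 4581 in mis4-367 and 4874 to 5151 in mis4+. The sums lean on the brightest of the mitosis genes. In the shift to 37 °C, 3 of the 13 rose and 4 fell in mis4-367, and 5 rose and 4 fell in mis4+. The part of these genes in the differences of the members, between strains or temperatures, was not tested.

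**Figure D5:**
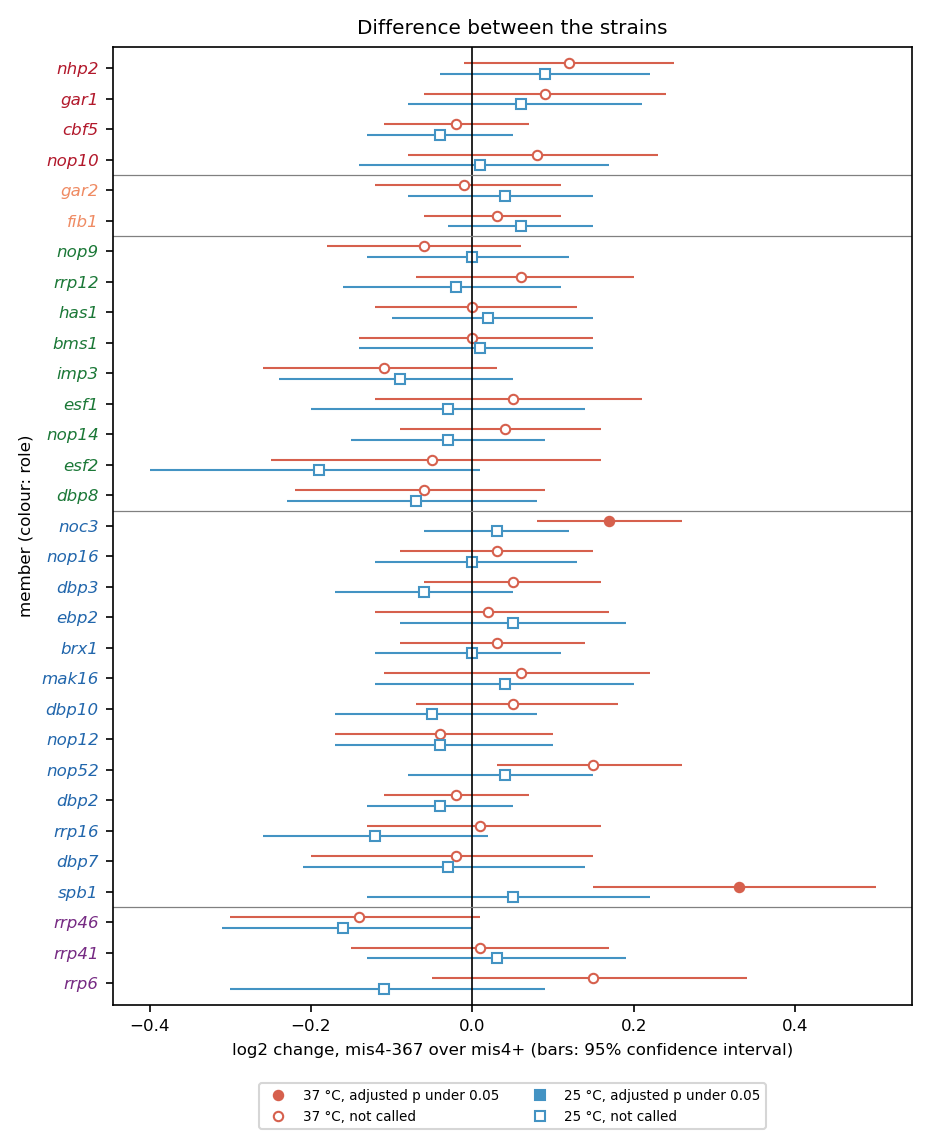
Log2 change of mis4-367 over mis4+ for each of the 31 members at 37 °C (red circles, upper of each pair) and at 25 °C (blue squares), with 95% confidence intervals from limma; filled symbols passed adjusted p under 0.05. Only spb1 and noc3 at 37 °C are filled, and the other symbols lie between -0.19 and 0.15.

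At 25 °C, before the shift, no member passed between the strains (limma, smallest adjusted p = 0.438), against 0.622% of all genes. At an unadjusted p under 0.05 there were 0 members, against 329 of the 2896 genes. The members ranged from -0.19 to 0.09 with a median of -0.004, and that of all genes was -0.029. The smallest p belonged to rrp46, with 306, 321 and 291 in mis4-367, against 335, 346 and 342 in mis4+ (-0.16 ± 0.07). Next was esf2, with 195, 205 and 202 in mis4-367, against 231, 210 and 249 in mis4+ (-0.19 ± 0.09, adjusted p = 0.466). The third was rrp16, with 638, 649 and 650 in mis4-367, against 722, 677 and 707 in mis4+ (-0.12 ± 0.07, adjusted p = 0.525). In all 3 the mis4-367 arrays lay wholly below those of mis4+, as they did for 4 members in all, against 23.9% of all genes, and 3 members lay wholly above, against 8.84%.

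The temperature response of mis4-367 minus that of mis4+ was tested for each member, and none passed in limma, as for all genes (0%), with 2 of the 31 members and 141 of the 2896 genes at an unadjusted p under 0.05. The members first in order of p were spb1 (0.28 ± 0.11), noc3 (0.14 ± 0.06) and rrp6 (0.25 ± 0.13), each with a limma adjusted p = 0.824. The 95% confidence intervals were 0.03 to 0.52 for spb1, 0.01 to 0.27 for noc3 and -0.02 to 0.52 for rrp6. For the 31 members the difference ranged from -0.06 to 0.28 with a median of 0.028. Among the snoRNP genes the intervals were -0.12 to 0.15 for cbf5, -0.18 to 0.24 for gar1 and -0.16 to 0.22 for nhp2. They were -0.15 to 0.29 for nop10 and -0.16 to 0.09 for fib1, and for gar2 the interval was -0.21 to 0.12.

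The members were measured about as closely as other genes. Their median SD over the 3 arrays of a group, on the log2 scale, was 0.071 in mis4-367 at 37 °C, 0.034 in mis4-367 at 25 °C, 0.107 in mis4+ at 37 °C and 0.037 in mis4+ at 25 °C. The same medians over all genes were 0.065, 0.039, 0.110 and 0.045. Both strains were thus more variable at 37 °C, and mis4+ most.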

How the data were processed

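Total RNA was labelled as biotin cRNA and hybridised to 12 GeneChip arrays, per the labels' protocols. The labels do not say whether same-numbered arrays of a strain at the low and the high temperature came from the same culture. The authors deposited 1 intensity per probe set and array on a linear scale. RMA is named in the submitters' processing notes; it evens the distributions of arrays and so flattens shifts common to many genes. Its version and the step back from log2 are not given in the sources used here. Columns were mapped by name (12 of 12). The deposited intensities were log2-transformed with no pseudocount. Probe sets were named through the platform annotation and gene identifiers of the reference table (assembly ASM294v3), and the brightest probe set was kept where a gene had several (14 genes, 0 of them members). The background level was the 95th percentile of 2601 probe sets for another yeast.

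limma 3.58.1 in R 4.3.3 fitted 4 group means over all 12 arrays, without a block or filter. The p-values were adjusted over 2896 genes (Benjamini-Hochberg). The test was checked on simulated data. No array was a copy of another (at most 0.138% equal values). The members and lists were chosen with earlier results of these data known. All 31 members are named. Array values are given for members past the threshold between strains (or the 3 smallest p), the 5 largest rises and falls of the shift per strain, and the H/ACA genes. Other pathway genes named are the 3 largest changes per direction in mis4+ and those past the threshold between strains. The number of arrays limits precision. Figures used matplotlib 3.10.9.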

Additional observations from a re-analysis of the deposited data

How the results depend on the processing

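For the shift, the counts of 15 risers and 7 fallers in mis4-367 and of 15 and 8 in mis4+ stayed within 1.5 times under every alternative run. These were quantile normalization and re-centring over the S. pombe genes, log2(value + 16), a filter on dim genes, the mean of all probe sets, only the groups compared, array weights, a trended prior, both replicate blocks and each array left out (14 to 15 and 7 in mis4-367, 11 to 15 and 7 to 12 in mis4+). Of the members called, 21 of 22 in mis4-367 and 18 of 23 in mis4+ were called in all of them. No called member changed sign. Without 1 array the median of the members in mis4+ ranged from 0.061 to 0.192, the lowest without replicate 3 at 37 °C; the strain median at 37 °C ranged from -0.024 to 0.065, so its sign was not settled. Between the strains at 37 °C the 2 members called higher became 0 with only the groups compared, 6 with array weights and 0 to 3 without 1 array, when all genes gave 10, 474 and 22 to 566 calls in place of 208. At 25 °C array weights called 1 member lower (rrp46, adjusted p = 0.0471), while 76 of all genes were called higher and 420 lower (17.1%). The cause was not tested. With the replicate number as a block the counts were 15 and 7 in mis4-367, 15 and 8 in mis4+, 2 higher at 37 °C and 0 elsewhere. With the replicate number within each strain as a block, those of the shift were the same. Deviations of same-numbered arrays of a strain at 25 and 37 °C correlated between -0.088 and 0.090. Each 37 °C array of mis4-367 correlated best with its own number at 25 °C (0.061 to 0.090). Same-numbered arrays of the 2 strains correlated between -0.383 and 0.183, which cannot show a culture shared between temperatures. Whether the numbers pair arrays was thus not settled, and the main fit did not pair them. Leaving out rrp12 was chosen after seeing the data.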
